A study of Homo sapiens with 6 samples.

Results

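The miRNAs described here are the arms of let-7a, let-7c, let-7e and let-7f, the part of the let-7 family in which hairpins of different processing groups are mixed or share a mature sequence. They were taken by name and comprise 9 of the 1000 mature miRNAs counted in the series: the 5p and 3p arms of let-7a, let-7c and let-7e, the 5p arm of let-7f, and the separate 3p arms of the let-7f-1 and let-7f-2 loci. HEK 293T cells, an immortalized human embryonic kidney line, were compared as a strain lacking both TUT4 and TUT7 (ΔTUT4/7, called TENT3A/B knockout in the labels, n = 3) and as wild type cells (WT, n = 3). All 6 libraries are biological replicates of untreated cells grown in the same medium. The knockout strain was made in another laboratory and the WT cells came from a cell bank, so the deletion and the history of the strain cannot be told apart. The sources used here do not say whether the strain is 1 clone. Since TUT4 and TUT7 mRNAs are not part of a mature miRNA table, the loss of the targeted genes was not checked here.

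A let-7 hairpin is cut from a primary transcript by DROSHA and then by DICER, which removes the loop and leaves a 5p arm, usually the one loaded into Argonaute, and a 3p arm that is mostly lost. TUT4 and TUT7 add uridines to the 3′ end of the hairpin. A single uridine repairs the short overhang of group II hairpins so that DICER can cut them, while a longer tail, added when LIN28 is bound to the loop, sends the hairpin to the exonuclease DIS3L2. Group I hairpins already have the overhang that DICER needs. The let-7 miRNAs repress growth-promoting mRNAs, among them RAS, MYC and HMGA2. In the study's list, taken from MirGeneDB, let-7a-1, let-7a-3, let-7f-1 and let-7f-2 are group II hairpins, and let-7a-2, let-7c and let-7e are group I.

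The mature sequences are shown because they decide which reads can be told apart. They were taken from RefSeq (GRCh38.p14), which matched 897 of the 1000 miRNAs by name, and are written 5′ to 3′ with the seed, positions 2 to 8, in capitals.
let-7a-5p: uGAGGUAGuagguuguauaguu
let-7c-5p: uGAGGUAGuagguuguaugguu
let-7e-5p: uGAGGUAGgagguuguauaguu
let-7f-5p: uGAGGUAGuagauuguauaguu
let-7a-3p: cUAUACAAucuacugucuuuc
let-7f-1-3p: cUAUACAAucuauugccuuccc
let-7c-3p: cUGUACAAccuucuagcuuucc
let-7e-3p: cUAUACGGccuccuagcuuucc
let-7f-2-3p is named only. The 4 5p arms share the seed GAGGUAG, which 10 of the matched miRNAs carry. Counted from the 5′ end of let-7a-5p, let-7e-5p differs by U9G, let-7f-5p by G12A and let-7c-5p by A19G. The authors trimmed reads to 18 nt before alignment, so let-7e-5p and let-7f-5p keep a base of their own, while let-7a-5p and let-7c-5p are the same over the 18 nt that were read. The 3p arms whose sequences are shown are less alike, and let-7f-2-3p was not compared. The seed UAUACAA is shared by let-7a-3p, let-7f-1-3p, let-7b-3p and miR-98-3p, and let-7c-3p (UGUACAA) and let-7e-3p (UAUACGG) have seeds that no other measured miRNA with a RefSeq sequence carries. Between let-7a-3p and let-7f-1-3p the substitutions C13U and U16C lie within the 18 nt.

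The hairpins lie at 7 loci (RefSeq coordinates, GRCh38.p14, host genes from GENCODE). The let-7a-1 hairpin (chr9:94175957-94176036, + strand) and the let-7f-1 hairpin (chr9:94176347-94176433, + strand) start 390 bases apart in an exon of the lncRNA gene MIRLET7A1HG, which also holds let-7d. The let-7a-3 hairpin (chr22:46112749-46112822, + strand) lies in an exon of the lncRNA gene MIRLET7BHG, 937 bases from let-7b. The let-7f-2 hairpin (chrX:53557192-53557274, - strand) lies in an intron of HUWE1, a ubiquitin ligase gene, 933 bases from miR-98. The group I loci have other neighbours. The let-7a-2 hairpin (chr11:122146522-122146593, - strand) lies in an intron of MIR100HG, let-7c (chr21:16539828-16539911, + strand) in an exon of MIR99AHG, 739 bases from miR-99a, and let-7e (chr19:51692786-51692864, + strand) in an intron of SPACA6, 174 bases from miR-99b. let-7a-5p can come from 3 loci, of which the let-7a-1 and let-7a-3 hairpins give the same 3p arm, counted as let-7a-3p. The 3p arm of let-7a-2 was not analysed here.

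The libraries held between 4338558 and 7967606 counts, and values are given as CPM, the count divided by the library total and multiplied by 1000000, which measure shares of the miRNA counts and not amounts per cell. The 5p arms had between 30049 and 252758 counts in a library and the 3p arms between 1 and 945, so counting error weighs mainly on the 3p arms. All 9 arms passed the filter on low counts (a count above 7 in at least 1 library), let-7f-1-3p only through the ΔTUT4/7 libraries. Replicates differed by more than sampling noise in both strains (chi-square divided by its degrees of freedom between 13.3 and 54.9 for pairs of ΔTUT4/7 libraries, and between 99.2 and 293 for pairs of WT libraries), and WT replicate 3 was the farthest from the other WT libraries. As miRNAs of other cell types, 4 of a list of 9 were analysed. Their summed level was 33.5 to 39.0 CPM in the ΔTUT4/7 libraries and 54.6 to 104.4 CPM in the WT libraries. Most of it was miR-142-3p, a miRNA of blood cells, at 30.9 to 36.3 CPM and 49.5 to 96.3 CPM, while the liver miRNA miR-122-5p and the red cell miRNA miR-451a stayed under 2 CPM in every library. Its part in the results was not tested.

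Of the 5p arms, let-7f-5p rose in ΔTUT4/7 cells, the pooled let-7a-5p and let-7c-5p reads rose less, and let-7e-5p did not rise. Of the 3p arms, let-7f-1-3p, let-7a-3p and let-7f-2-3p rose, and let-7c-3p and let-7e-3p did not pass the test. Of the 9 arms, let-7f-5p, let-7a-3p, let-7f-1-3p and let-7f-2-3p were called higher (at least 2-fold with a Benjamini-Hochberg adjusted p under 0.05 in edgeR's quasi-likelihood test) and 0 were called lower, where 16.5% of the 826 tested miRNAs were called higher and 13.6% lower. An adjusted p under 0.05 in either direction was found for 7 of 9 arms and for 45.2% of all tested miRNAs. All ΔTUT4/7 libraries lay above all WT libraries for 6 arms (28.8% of tested miRNAs) and below them for let-7c-3p and let-7e-5p (29.5%). The 7 and the 6 arms count let-7a-5p and let-7c-5p separately, although these divide the same pool of reads. They and the arms called higher include let-7f-1-3p, which passed the filter only through the ΔTUT4/7 libraries.

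**Figure D1:**
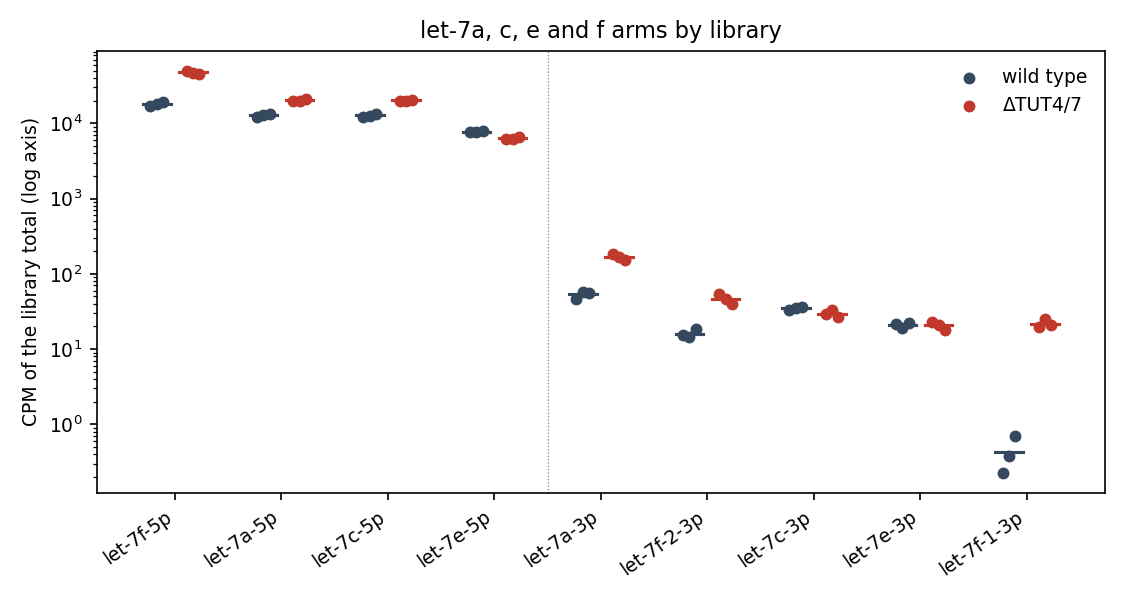
Level of each arm in every library, in CPM on a log axis, with 5p arms left of the dotted line and 3p arms right of it; points are libraries and bars are strain means (n = 3). The let-7f-1-3p points are near 0.4 CPM in WT libraries and near 20 CPM in ΔTUT4/7 libraries, while those of let-7e-3p overlap.

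let-7f-5p (hsa-let-7f-5p in the table), the guide strand made from both let-7f hairpins, was the most abundant of the 9 arms in both strains. Its count was 252758, 224727 and 213966 in ΔTUT4/7 replicates 1, 2 and 3, and 75923, 142356 and 83484 in the WT replicates. As CPM these were 49815, 46725 and 45635 against 17208, 17867 and 19242, so the lowest ΔTUT4/7 library lay far above the highest WT library. The means were 47392 ± 2168 and 18106 ± 1038 CPM (SD, n = 3), 2.62-fold apart, with a log2 fold change of 1.39 (SE 0.10, edgeR adjusted p = 5.06e-07). let-7f-5p ranked 5 among all miRNAs by mean level in ΔTUT4/7 cells and 13 in WT cells.

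let-7a-5p (hsa-let-7a-5p) and let-7c-5p (hsa-let-7c-5p) received nearly equal counts in every library. let-7a-5p had 101647, 96526 and 98960 counts in the ΔTUT4/7 replicates and 53099, 101341 and 58495 in the WT replicates. let-7c-5p had 100678, 95106 and 97087 counts in the ΔTUT4/7 replicates and 53438, 101227 and 58526 in the WT replicates. The ratio of the 2 counts stayed between 0.994 and 1.02 in all 6 libraries, as the reads cannot separate them, so the value of either is a share of a pool and says nothing of let-7a or let-7c alone. The pool rose from 25514 ± 1415 CPM in WT cells to 40511 ± 1128 CPM in ΔTUT4/7 cells (SD, n = 3), which is 1.59-fold. The log2 fold change was 0.68 for let-7a-5p (SE 0.10, edgeR adjusted p = 2.83e-04), 0.66 for let-7c-5p (SE 0.10, edgeR adjusted p = 3.59e-04), and 0.67 when miRNAs with the same 18 nt were summed before the test (SE 0.10, edgeR adjusted p = 2.23e-04). The rise passed the adjusted p but not the 2-fold limit.

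let-7e-5p (hsa-let-7e-5p) is the 5p arm that comes from a single group I hairpin and has its own base within the 18 nt. It had 6160, 6248 and 6497 CPM in the ΔTUT4/7 replicates and 7560, 7746 and 7948 CPM in the WT replicates. The groups did not overlap, with ΔTUT4/7 the lower, and the means were 6302 ± 175 and 7751 ± 194 CPM (SD, n = 3). The log2 fold change was -0.30 (SE 0.11, edgeR adjusted p = 0.0408). This call was lost when ΔTUT4/7 replicate 1, 2 or 3 or WT replicate 2 was left out (adjusted p = 0.0582 to 0.16), and with library totals that left out let-7 and miR-98 the change was -0.08 (adjusted p = 0.585).

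The order of the 5p levels was the same in both strains, with let-7f-5p first, let-7a-5p and let-7c-5p overlapping each other, and let-7e-5p last. Their proportions differed. let-7f-5p took 48.6% to 52.0% of the counts of these 4 arms in ΔTUT4/7 libraries and 35.01% to 35.53% in WT libraries. let-7a-5p and let-7c-5p together took 41.6% to 44.5% and 49.4% to 49.8%, and let-7e-5p took 6.43% to 6.92% and 14.7% to 15.5%. For each of these shares the libraries of the strains did not overlap, and the exact two-sided permutation test gave p = 0.1, the smallest value that 3 against 3 libraries allow.

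The change in proportions was also tested with let-7e-5p as the reference, by using its count as the size of each library, which takes the library total out of the comparison. Relative to let-7e-5p, let-7f-5p was higher by 1.69 on the log2 scale (SE 0.11, edgeR adjusted p = 4.20e-08), and let-7a-5p by 0.98 (SE 0.11, edgeR adjusted p = 9.69e-06). On the library total the reference itself was lower in ΔTUT4/7 (log2 fold change -0.30, a call lost under some settings), which raises these values. An adjusted p under 0.05 in either direction was found for 6 of the 8 other arms and for 49.8% of all tested miRNAs. These 6 count let-7a-5p and let-7c-5p separately, although they divide the same pool of reads. The exceptions were let-7c-3p, at 0.07 (SE 0.19, edgeR adjusted p = 0.786), and let-7e-3p, at 0.29 (SE 0.21, edgeR adjusted p = 0.254).

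**Figure D2:**
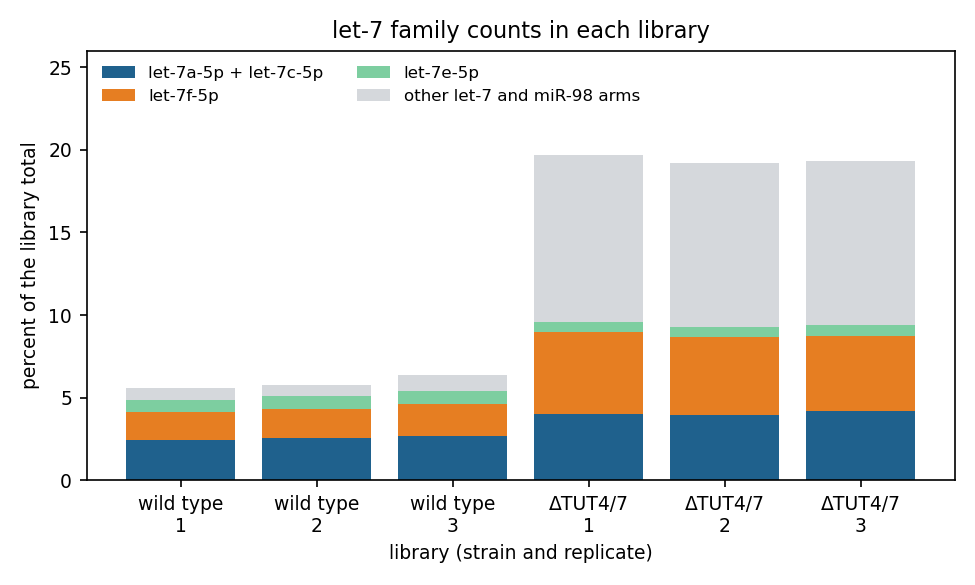
Percent of each library's total count taken by let-7a-5p with let-7c-5p, let-7f-5p, let-7e-5p and the remaining let-7 and miR-98 arms, as stacked bars for the 3 wild type and 3 ΔTUT4/7 libraries. The whole bar is 5.57% to 6.36% in wild type and 19.2% to 19.7% in ΔTUT4/7, and the grey part holds most of the added height.

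As a share of the library total, the 9 arms rose from 5.15% ± 0.265 in WT to 9.45% ± 0.155 in ΔTUT4/7 (SD, n = 3, exact two-sided permutation p = 0.1). Within the let-7 family with miR-98 their share went the other way. It was 88.1%, 88.4% and 85.4% in WT replicates 1, 2 and 3, and 48.9%, 48.5% and 48.8% in the ΔTUT4/7 replicates. The means were 87.3% ± 1.64 and 48.7% ± 0.218 (exact two-sided permutation p = 0.1). The other 10 arms of the family, those of let-7b, let-7d, let-7g, let-7i and miR-98, were all called higher. Their median log2 fold change was 3.79 (range 2.27 to 5.36), while the median of the 9 arms described here was 0.68 and that of all tested miRNAs 0.01. In the median of the 9 arms, let-7a-5p and let-7c-5p enter separately, although they divide the same pool of reads.

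For let-7f, the 3p arms are named by hairpin, which the 5p arm is not, since the let-7f loci have 3p arms of their own. How far let-7f-2-3p differs from the other arms over the 18 nt was not checked, as its sequence was not at hand. let-7f-1-3p (hsa-let-7f-1-3p) was nearly absent from WT cells, with 1, 3 and 3 counts in replicates 1, 2 and 3, and had 100, 119 and 99 counts in the ΔTUT4/7 replicates. Over the strains, 318 counts stood against 7. Divided by the summed library totals of each strain, this was a 52.1-fold difference, with an exact 95% interval of 25.0 to 131 that covers counting error only. The ratio of the mean CPM was 50.6. The log2 fold change was 5.62 (SE 0.35, edgeR adjusted p = 1.31e-07), the highest of the 9 arms. This arm entered the test only through the ΔTUT4/7 libraries, where it is high. With limma on log2(CPM + 1), which shrinks low values, it was 4.004.

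let-7f-2-3p (hsa-let-7f-2-3p), from the locus on chromosome X, rose by far less. It had 274, 223 and 187 counts in the ΔTUT4/7 replicates and 68, 115 and 80 in the WT replicates, which is 54.0, 46.4 and 39.9 CPM against 15.4, 14.4 and 18.4 CPM. The groups did not overlap, and the log2 fold change was 1.54 (SE 0.21, edgeR adjusted p = 1.04e-04). The share of let-7f 3p counts that came from let-7f-1 was 26.7%, 34.8% and 34.6% in the ΔTUT4/7 replicates (exact 95% binomial intervals from 22.3% to 40.4%). In the WT replicates it was 1.45%, 2.54% and 3.61% (intervals from 0.0367% to 10.2%). These intervals cover counting error only and treat reads as independent molecules, while replicates differed by more than that. All ΔTUT4/7 shares lay above all WT shares (exact two-sided permutation p = 0.1, the smallest possible).

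let-7a-3p (hsa-let-7a-3p) is the product of the group II loci let-7a-1 and let-7a-3. It had 945, 803 and 712 counts in the ΔTUT4/7 replicates and 207, 459 and 239 in the WT replicates. The levels were 186, 167 and 152 CPM against 46.9, 57.6 and 55.1 CPM, without overlap, and the log2 fold change was 1.66 (SE 0.17, edgeR adjusted p = 1.25e-05). In a fit added after the data were seen, with the let-7a-3p count as the size of each library, let-7f-1-3p was higher by 4.03 (SE 0.45, edgeR adjusted p = 3.00e-07). let-7f-1-3p entered this fit only through the ΔTUT4/7 libraries, where it is high. In that fit let-7f-2-3p differed from let-7a-3p by -0.13 (SE 0.25, edgeR adjusted p = 0.656). Whether reads of these arms could be told apart was not checked.

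The 3p arms of the group I hairpins did not pass the test. let-7c-3p (hsa-let-7c-3p) had 29.4, 33.1 and 26.4 CPM in the ΔTUT4/7 replicates and 33.1, 35.6 and 35.7 CPM in the WT replicates. These groups nearly touched, with the highest ΔTUT4/7 library just under the lowest WT library, and the log2 fold change was -0.23 (SE 0.18, edgeR adjusted p = 0.319). let-7e-3p (hsa-let-7e-3p) had 23.1, 21.0 and 17.9 CPM against 21.5, 19.2 and 21.9 CPM, which overlap, with a log2 fold change of -0.01 (SE 0.20, edgeR adjusted p = 0.968). The let-7e-3p change was positive under other scalings, at 0.03 with TMM factors and 0.21 with totals that left out let-7 and miR-98.

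In WT cells the 3p arms ranked let-7a-3p, let-7c-3p, let-7e-3p, let-7f-2-3p and let-7f-1-3p by mean CPM, and the libraries of no neighbours in that order overlapped. In ΔTUT4/7 cells the order was let-7a-3p, let-7f-2-3p, let-7c-3p, let-7f-1-3p and let-7e-3p, and only let-7f-1-3p and let-7e-3p overlapped, at 19.7 to 24.7 CPM and 17.9 to 23.1 CPM.

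The number of 3p counts per 1000 5p counts of the same miRNA does not depend on the library total. For let-7f-1 it was 0.396, 0.530 and 0.463 in the ΔTUT4/7 replicates and 0.0132, 0.0211 and 0.0359 in the WT replicates, a log2 difference of 4.08 (SE 0.33, limma adjusted p = 9.52e-04 over 231 hairpins). For let-7f-2, set against the same let-7f-5p counts, it was 1.08, 0.992 and 0.874 against 0.896, 0.808 and 0.958. These overlap, and the log2 difference was 0.14 (SE 0.21, limma adjusted p = 0.701). The let-7f-2 3p arm and let-7f-5p thus moved by amounts that this test did not separate. The let-7f-5p counts hold reads of both let-7f hairpins, so neither ratio is that of a single hairpin. With an adjusted p under 0.05 as the limit, 3 of these 5 arm ratios and 12.6% of all 231 were called. The let-7f-1 ratio is among the 3, and its 3p arm passed the filter only through the ΔTUT4/7 libraries.

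For let-7a the ratio rose from 4.17 ± 0.324 to 8.27 ± 1.05 3p counts per 1000 5p counts (SD, n = 3), a log2 difference of 0.98 (SE 0.22, limma adjusted p = 0.0398). For let-7c it fell from 2.73 ± 0.0786 to 1.48 ± 0.197, a log2 difference of -0.89 (SE 0.21, limma adjusted p = 0.0461). Both calls were lost when any 1 of the 6 libraries was left out (limma adjusted p of 0.0658 to 0.134 for each), with log2 differences of 0.89 to 1.08 and -0.99 to -0.79. Both also rest on the pooled 5p counts, which hold reads of all 3 let-7a loci and of let-7c at once. For let-7e, where both arms come from 1 hairpin, the ratio was 3.74, 3.36 and 2.76 in the ΔTUT4/7 replicates and 2.85, 2.48 and 2.76 in the WT replicates, with a log2 difference of 0.28 (SE 0.22, limma adjusted p = 0.457).

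**Figure D3:**
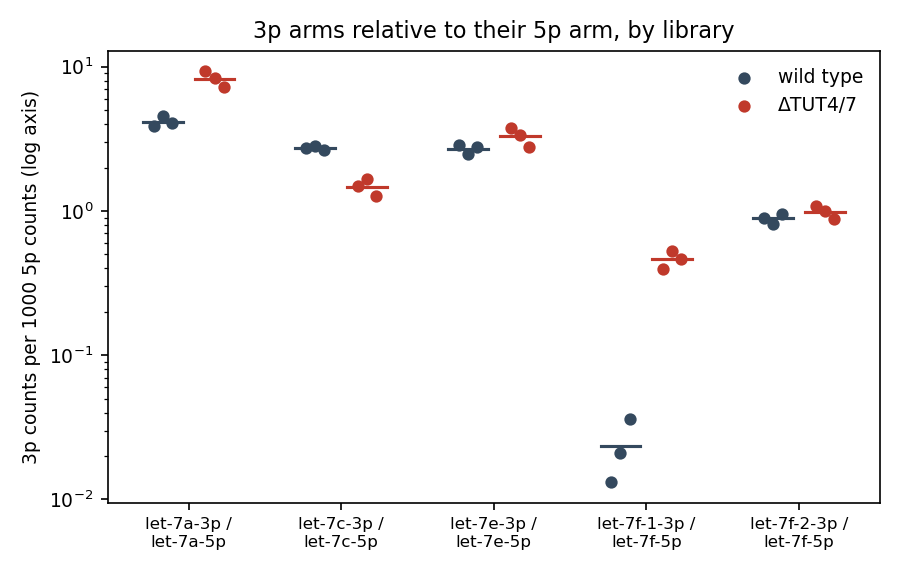
3p counts per 1000 5p counts on a log axis, by library; points are libraries and bars are strain means (n = 3). The let-7f-1 ratio is near 0.02 in wild type and 0.46 in ΔTUT4/7, and the let-7e and let-7f-2 ratios overlap between strains.

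The loops of these hairpins are shown because they are the part that DICER removes and that LIN28 is known to bind. The loop is taken as the bases between the mature arms (RefSeq, GRCh38.p14), read 5′ to 3′ on the RNA strand. Capitals mark GGAG, the letters known as the contact of the LIN28 zinc knuckles, and GAU where it ends at least 10 nt before the 3p arm, letters found in known contacts of its cold shock domain.
let-7f-1 (chr9:94176375-94176408): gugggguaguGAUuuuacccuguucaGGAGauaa
let-7a-1 (chr9:94175984-94176012): uuagggucacacccaccacugGGAGauaa
let-7a-3 (chr22:46112774-46112799): uggggcucugcccugcuaugggauaa
let-7f-2 (chrX:53557218-53557245): uuagggucauaccccaucuuGGAGauaa
let-7a-2 (chr11:122146545-122146567): uagaauuacaucaagGGAGauaa
let-7c (chr21:16539860-16539882): uagaguuacacccugGGAGuuaa
let-7e (chr19:51692815-51692837): gaGGAGgacacccaaGGAGauca
The let-7f-1 loop, of 34 nt, is the longest of the 7, whose other loops are 23 to 29 nt, and the one among them with the GAU letters. GGAG is in all of them but let-7a-3. The loops of let-7b, let-7d, let-7g, let-7i and miR-98 are 32 to 36 nt. GAU at such a distance is in all of them but let-7i, whose 3p arm had a log2 fold change of 5.36. Only GAU was searched, so the let-7i loop was not checked for other letters that the cold shock domain may contact. GGAG is in all of them but let-7b and miR-98, whose 3p arms had log2 fold changes of 4.04 and 3.18. Among 51 loops of 23 to 36 nt of other miRNAs in the table, GGAG was in 17.6%, GAU in 15.7% and both in 0. The letters and the distance were chosen with the fold changes known, and these matches are a description. Their part in the changes was not tested.

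The arms transcribed beside the 9 arms moved in different directions by locus. Beside the group II loci, all 6 arms of let-7b, let-7d and miR-98 were called higher, against 16.5% of all tested miRNAs. In the cluster on chromosome 9, let-7d-5p rose from 297 ± 52.4 to 5743 ± 321 CPM (log2 fold change 4.27, SE 0.17) and let-7d-3p from 5.44 ± 1.71 to 155 ± 54.1 CPM (4.77, SE 0.32), between the 1.66 of let-7a-3p and the 5.62 of let-7f-1-3p. On chromosome 22, let-7b-3p changed by 4.04 (SE 0.32), and relative to let-7a-3p, whose let-7a-3 hairpin is beside it, by 2.42 (SE 0.36, edgeR adjusted p = 8.11e-06). That value is from the fit added after the data were seen. let-7a-3p also holds reads of let-7a-1 on chromosome 9, so it does not compare hairpins of chromosome 22 alone. On chromosome X, miR-98-3p changed by 3.18 (SE 0.30) and let-7f-2-3p by 1.54 (SE 0.21).

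Beside the group I loci, the arms of miR-99a, miR-99b, miR-100, miR-125a and miR-125b were lower or not called. Of 9 arms tested, 0 were called higher and 4 lower, 8 had an adjusted p under 0.05, and the median log2 fold change was -0.90, where 16.5% of all tested miRNAs were called higher, 13.6% lower and 45.2% had an adjusted p under 0.05, with a median of 0.01. The lowest was miR-125b-5p at -1.70 (SE 0.30, edgeR adjusted p = 8.61e-04). In the let-7e cluster on chromosome 19, miR-99b-5p fell from 5041 ± 398 to 2851 ± 281 CPM (SD, n = 3), a log2 fold change of -0.82 (SE 0.13, edgeR adjusted p = 3.25e-04). miR-125a-5p fell from 13950 ± 1715 to 7474 ± 1053 CPM, a log2 fold change of -0.90 (SE 0.14, edgeR adjusted p = 2.90e-04). Relative to let-7e-5p these arms stood at -0.53 (SE 0.13, edgeR adjusted p = 0.0053) and -0.61 (SE 0.14, edgeR adjusted p = 0.00333) on the log2 scale, lower than let-7e-5p in both cases. On chromosome 21, beside let-7c, miR-99a-5p changed by -1.20 (SE 0.19, edgeR adjusted p = 4.03e-04) and miR-99a-3p by -1.19 (SE 0.22, edgeR adjusted p = 9.57e-04), and let-7c-3p by -0.23. miR-100-3p and miR-125b-1-3p were not analysed here.

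**Figure D4:**
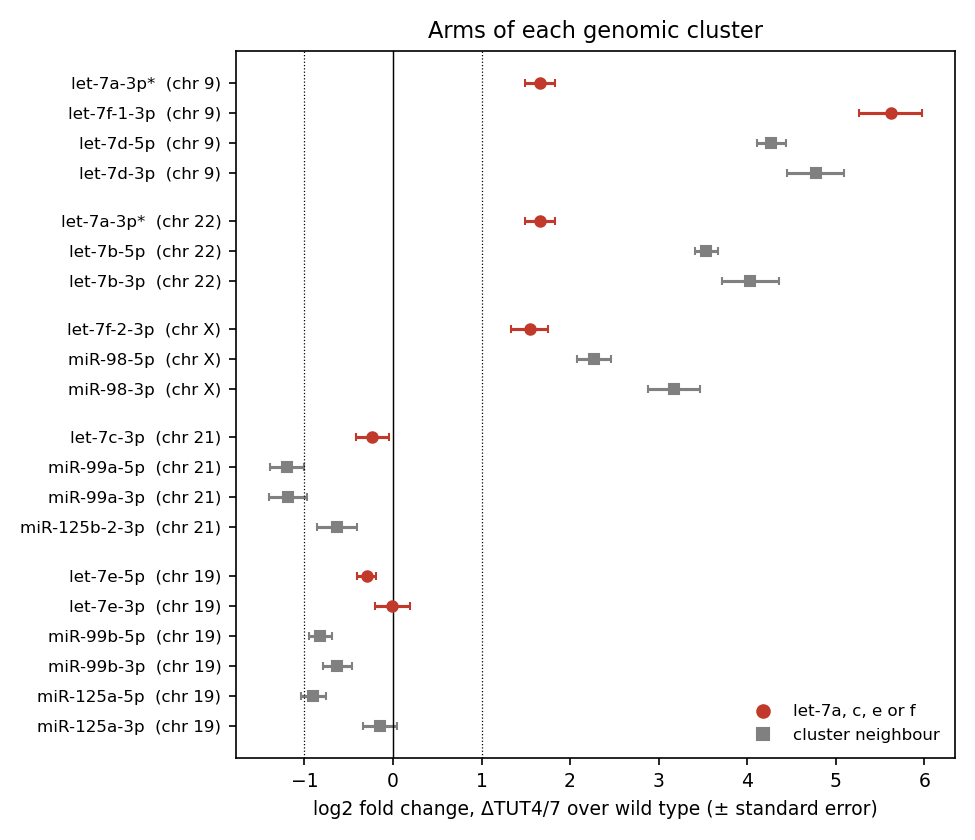
log2 fold change in ΔTUT4/7 over wild type (points) with its standard error (bars) for arms grouped by the chromosome of their cluster; circles are let-7a, c, e and f arms, squares their neighbours, and the dotted lines are 2-fold changes. let-7a-3p, marked with a star, comes from 2 loci and is drawn with the same value at both. The squares drawn on chromosomes 9, 22 and X lie between 2.27 and 4.77, and those drawn on chromosomes 21 and 19 between -1.20 and -0.15. miR-100-5p (-1.13), beside let-7a-2, and miR-125b-5p (-1.70), which comes from more than 1 locus, are not drawn.

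Outside the let-7 family, the 5 miRNAs whose levels followed let-7a-5p most closely over the 6 libraries were miR-129-5p (Pearson r = 0.996), miR-503-3p (0.994), miR-504-5p (0.994), miR-887-3p (0.987) and miR-503-5p (0.985), out of 372 with a mean above 10 CPM. The let-7a-5p value used here is its share of the read pool with let-7c-5p and not let-7a alone. The correlation is of log2(CPM + 1) and is given as a description, since the libraries form 2 strains and share the library totals. miR-504-5p and miR-887-3p, with a mean of 4.50 CPM for the latter in WT, passed the limit of 10 CPM only through the knockout libraries. All 5 were picked for following an arm that was higher in the knockout strain. Their rise was thus set by the selection and is not a separate result. The size of the change was not alike. miR-503-5p went from 689 to 1461 CPM, a log2 fold change of 1.08 (SE 0.13), and miR-504-5p from 0.801 to 60.2 CPM, a log2 fold change of 6.06 (SE 0.34), where let-7a-5p changed by 0.68.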

How the data were processed

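Libraries were made by the authors with the QIAseq miRNA Library Kit from 3 ΔTUT4/7 and 3 WT samples and sequenced. Reads were trimmed by the authors to 18 nt, aligned with Bowtie 1.0.0 to hg38 and quantified on miRBase 22 in Partek Flow 10.0.22. The deposited values are estimated counts from an expectation-maximization step that divides reads fitting several miRNAs, and they were whole numbers as deposited. The sources used here do not say whether molecular identifiers were used. The authors' own comparison, which holds p-values, FDR, fold changes and strain means, was not used.

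CPM was computed on the library total. miRNAs with a highest count above 7 (826 of 1000) were tested with edgeR 4.0.16 (quasi-likelihood, normalization factors of 1, Benjamini-Hochberg over all tested) in R 4.3.3, and arm ratios with limma 3.58.1 on log2 ratios with 0.5 added to each count. Standard errors of edgeR were derived from the F statistic. Shares were compared by exact permutation in scipy 1.17.1. Alternatives were DESeq2 1.42.0, limma-trend on log2(CPM + 1), TMM and RLE factors, totals that left out the let-7 family, other filters, call rules, references and pseudocounts, a replicate block, each library left out and miRNAs sharing 18 nt summed. The fits were tested on simulated data.

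The miRNAs named are all 9 arms, fixed lists of cluster neighbours, of the rest of the family and of miRNAs of other cell types, and the 5 most correlated with let-7a-5p. The members and lists were chosen with earlier results of these data known. File starts and RefSeq starts were the same for 892 of 897 matched miRNAs.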

Additional observations from a re-analysis of the deposited data

How the results depend on the processing

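The number of arms called was 4 higher and 0 lower under every alternative run, and the changes of let-7f-5p (1.34 to 1.61), let-7f-1-3p (4.004 to 5.99), let-7f-2-3p (1.43 to 1.77), let-7a-3p (1.58 to 1.88) and let-7a-5p (0.63 to 0.90) kept their sign and their side of an adjusted p of 0.05. Totals without let-7 and miR-98 moved the median change of all tested miRNAs from 0.01 to 0.23 and the share of calls that were higher from 54.8% to 69.3%. let-7e-5p also missed the limit with TMM factors (adjusted p = 0.0949) and with no filter on low counts (adjusted p = 0.051). The let-7e-3p change was positive with TMM factors (0.029), with totals without let-7 and miR-98 (0.21), and without ΔTUT4/7 replicate 3 (0.082), WT replicate 1 (0.013) or WT replicate 3 (0.028), in a range of -0.097 to 0.082 over the 6 left-out libraries. Relative to the sum of let-7a-5p and let-7c-5p in place of let-7e-5p, let-7c-3p was at -0.90 and let-7e-3p at -0.68, as that reference itself rose; let-7c-3p relative to let-7e-5p was at -0.024 without ΔTUT4/7 replicate 2, in a range of -0.024 to 0.16. Without 1 library, the arm difference was 0.89 to 1.08 for let-7a and -0.99 to -0.79 for let-7c. The depth limits let-7f-1-3p in WT, where 3 counts are 0.377 to 0.691 CPM.

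Libraries of the 2 strains share replicate numbers, but those with the same number did not deviate together (correlations of -0.17, -0.16 and -0.25). These are deviations from the mean of few libraries per strain, so they cannot show whether a preparation or run was shared. With the replicate block, 4 arms were called higher and 0 lower, let-7e-5p had an adjusted p of 0.113, and the arm differences of let-7a (0.98, adjusted p = 0.138) and let-7c (-0.89, adjusted p = 0.146) missed the limit. Among all tested miRNAs, the block gave 131 called higher and 102 lower against 136 and 112 without it. No library correlated best with the library of its own number.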
